A study of Mus musculus with 6 samples.

Results

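The 9 genes described here make, degrade and sense prostaglandins and leukotrienes: Ptgs1, Ptgs2, Ptges, Hpgd, Ptger2, Ptger4, Alox5, Alox5ap and Ltc4s. They were chosen by name, for their place in the pathway, out of 27361 gene names on the arrays. Earlier results of these data were known at that choice, so the shares of all genes set beside them are descriptive only. All 9 were bright enough to be tested. RNA came from bone marrow-derived macrophages of C57BL/6 mice, grown for 7 days with 10% medium conditioned by L929 cells and then kept for 24 hours in 1 of 3 states. For the M1 state the medium held LPS at 100 ng/ml and interferon-gamma at 20 ng/ml, for the M2 state IL-4 and IL-13 at 10 ng/ml each, and for the M0 state none of these. KO cells carried LysMcre with FoxO1 Fl/Fl, and WT cells carried FoxO1 Fl/Fl alone, so both genotypes share the floxed alleles and only KO cells carry a Cre. Loss of Foxo1 and presence of the Cre cannot be told apart here. LysMcre is active in macrophages and in other cells of the myeloid line, including neutrophils. Each of the 6 combinations of genotype and state had 1 array of 1 colour, and the labels do not tell separate animals from a shared one, so p-values measure only the spread between these samples, which may be technical.

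Both branches of the pathway start from arachidonic acid, which phospholipases free from membranes. In one branch the cyclooxygenases Ptgs1 (COX-1, usually constitutive) and Ptgs2 (COX-2, inducible in macrophages by microbial products) make prostaglandin H2, and Ptges, the inducible microsomal prostaglandin E synthase, turns it into prostaglandin E2. In the other branch Alox5, 5-lipoxygenase, acts with its membrane helper Alox5ap to make leukotriene A4, which Ltc4s, leukotriene C4 synthase, joins to glutathione. Hpgd, 15-hydroxyprostaglandin dehydrogenase, inactivates prostaglandins. Ptger2 and Ptger4 encode EP2 and EP4, the prostaglandin E2 receptors that raise cyclic AMP.

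Promoters are shown for the pair of genes that rose in M1 cells, Ptgs2 and Ptges, and for the pair with the largest falls, Ptgs1 and Hpgd. RefSeq sequences on GRCm38.p6, from 250 bases before to 50 bases after the start, matched 8 of the 9 genes by symbol. Capitals mark matches to 7 motifs searched on both strands: the E-box CACGTG, the CRE core ACGTCA, C/EBP TTGCNNAA, GAS TTCNNNGAA, FoxO GTAAACA, the TATA-box letters TATAAA, and NF-kB, given by name.
Ptgs2 promoter, chr1:150099781-150100080, plus strand: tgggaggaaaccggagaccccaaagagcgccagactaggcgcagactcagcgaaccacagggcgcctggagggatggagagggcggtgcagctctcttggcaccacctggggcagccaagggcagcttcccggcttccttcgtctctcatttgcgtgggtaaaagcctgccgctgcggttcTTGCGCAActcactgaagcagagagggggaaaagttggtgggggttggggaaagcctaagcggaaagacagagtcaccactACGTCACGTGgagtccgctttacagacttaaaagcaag
Ptges promoter, chr2:30903248-30903547, minus strand: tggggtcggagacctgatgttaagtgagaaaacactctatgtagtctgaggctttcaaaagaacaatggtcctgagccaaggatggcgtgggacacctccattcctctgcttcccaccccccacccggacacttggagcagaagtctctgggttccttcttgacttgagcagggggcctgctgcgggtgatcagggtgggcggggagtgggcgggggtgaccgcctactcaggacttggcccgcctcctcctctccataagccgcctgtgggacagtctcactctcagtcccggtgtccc
Ptgs1 promoter, chr2:36230176-36230475, plus strand: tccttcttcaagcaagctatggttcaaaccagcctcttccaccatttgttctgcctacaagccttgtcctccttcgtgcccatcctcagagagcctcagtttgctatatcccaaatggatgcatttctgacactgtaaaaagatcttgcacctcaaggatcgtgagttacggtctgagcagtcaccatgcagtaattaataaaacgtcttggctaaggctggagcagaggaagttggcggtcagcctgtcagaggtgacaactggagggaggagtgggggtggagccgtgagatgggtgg
Hpgd promoter, chr8:56294302-56294601, plus strand: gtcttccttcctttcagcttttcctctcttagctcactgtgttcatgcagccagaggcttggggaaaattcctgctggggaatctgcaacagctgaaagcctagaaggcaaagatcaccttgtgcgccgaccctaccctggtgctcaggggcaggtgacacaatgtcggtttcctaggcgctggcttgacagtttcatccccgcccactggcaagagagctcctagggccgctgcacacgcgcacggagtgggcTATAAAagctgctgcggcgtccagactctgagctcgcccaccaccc
The Ptgs2 window held TTGCGCAA from -69 to -62, a C/EBP match on both strands, counted from the start. It also held ACGTCA from 13 to 18, whose end overlaps CACGTG from 17 to 22. The Hpgd window held TATAAA from 5 to 10, and the Ptges and Ptgs1 windows held none of the 7 motifs. Of 32851 promoters of the same length, 10.8% held the C/EBP letters, 7.51% the CRE core, 7.15% the E-box and 13.6% TATAAA. The GAS letters were in 8.30%, NF-kB in 4.51% and the FoxO letters in 3.65% of promoters. Of the other genes with a promoter, Ptger2 held TTGCTTAA, a C/EBP match, from 40 to 47, and Alox5, Ptger4 and Ltc4s held none of the motifs. A match describes letters only and does not show that a factor binds. Positions and windows depend on the RefSeq start, and whether transcripts of these cells start there was not tested. The array probes themselves, 60 bases each, lie on mm9 at chr1:151954744-151954803 for Ptgs2 and chr2:30747838-30747897 for Ptges, at chr2:36107644-36107703 for Ptgs1, at chr8:58799399-58799458 for Hpgd and at chr11:50050522-50050581 for Ltc4s. Which exon or UTR each probe lies in was not analysed here.

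The arrays met the labels in the genes that check them. Foxo1 had a processed signal of 165 to 282 units on the 3 KO arrays, against 1144 to 1559 units on the 3 WT arrays. Nos2, the M1 marker, had 4173 units in KO M1 and 6082 units in WT M1, at least 694-fold higher in M1 than in M0 cells. Arg1, the M2 marker, had 31471 units in KO M2 and 41395 units in WT M2. All 8 macrophage markers, such as Adgre1, Csf1r and Lyz2, were well above background on all 6 arrays. The 75th percentile of the signal ranged over arrays from 532 to 627 units, and 62.8% to 67.7% of probes were well above background. The arrays lay on 2 slides, with WT M0 and WT M1 on slide 1 and WT M2 and the 3 KO arrays on slide 2. M1 minus M0 therefore lies within a slide in each genotype, whereas for KO against WT only the M2 pair shares one. WT M0 stood apart by liver transcripts: the median level of 8 liver genes was 0.22 there and -3.81 in KO M1, while the remaining 4 arrays ranged from -5.98 to -5.35. A level is the log2 signal minus the log2 of its array's 75th percentile, and a difference is on the same log2 scale.

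In M1 cells, Ptgs2 and Ptges, which act in sequence to make prostaglandin E2, rose, while Ptgs1, Hpgd and Ltc4s fell, each with the same sign in KO and WT. With limma's moderated test over all genes, 5 of the 9 had an adjusted p under 0.05 for M1 against M0, beside 25.6% of the 19043 genes tested. The median size of the difference was 2.46 over the 9 genes and 0.53 over all genes tested.

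**Figure D1:**
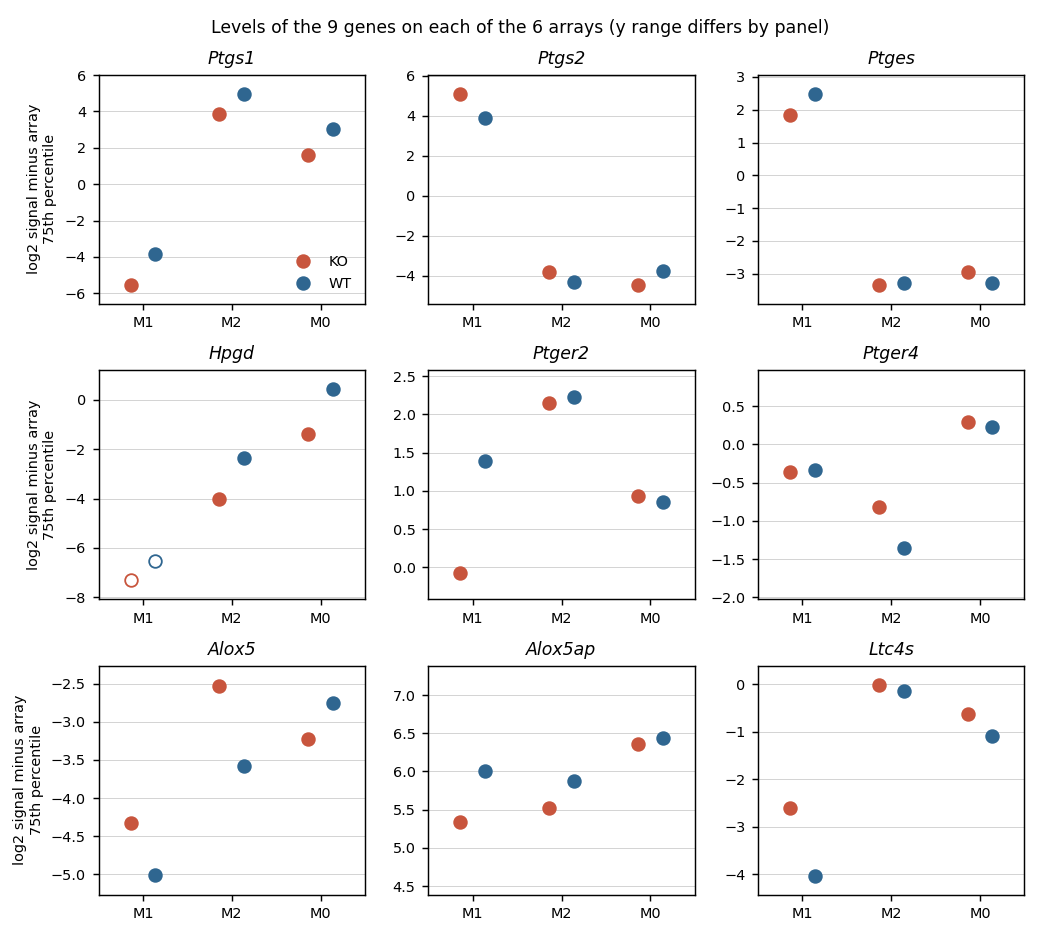
Level of each of the 9 genes (log2 signal minus the array's 75th percentile) in M1, M2 and M0 cells, with KO in red left of WT in blue, 1 point for each array and no error bars. Open points are not well above background. Ptgs2 and Ptges stand high in M1 alone, and Ptgs1 is low in M1 and lower in KO than in WT in each state.

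Ptgs2 had a signal of 20193 units in KO M1 and 8651 in WT M1, 45.2 in KO M2 and 27.5 in WT M2, and 27.8 in KO M0 and 39.7 in WT M0. Both M1 arrays were far above the other 4, which stayed within a narrow band near the dim end of the scale, with each neighbour in their order within the residual SD of 0.69. The gene was 8.59 ± 0.52 higher in M1 than in M0 cells (log2, SE, 2 arrays a state; limma adjusted p = 0.00709), the 15th largest increase of 19043 genes. The increase was 9.55 in KO, 748-fold, and 7.62 in WT, 197-fold. Its probe was printed 10 times on each array, and the coefficient of variation over these spots was between 3.62% and 9.91%. The spots repeat the hybridisation only, not the cells. A second Ptgs2 probe, 328 bases away, gave 9.81 in KO and 7.49 in WT.

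Ptges had a signal of 2102 units in KO M1 and 3305 in WT M1, 62.1 in KO M2 and 56.0 in WT M2, and 77.4 in KO M0 and 55.0 in WT M0. Only the M1 arrays were high. The M2 and M0 arrays crossed in signal, but as levels both M2 arrays lay below both M0 arrays, at -3.34 and -3.30 against -2.96 and -3.27, each neighbour within the residual SD of 0.34. The difference between M1 and M0 cells was 5.29 ± 0.29 (limma adjusted p = 0.00704), the 80th largest increase, with 4.81 in KO and 5.77 in WT.

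Ptgs1, the other cyclooxygenase, had the opposite pattern. Its signal was 12.7 units in KO M1 and 41.4 in WT M1, 8995 in KO M2 and 17378 in WT M2, and 1827 in KO M0 and 4334 in WT M0. The M1 arrays were lowest, the M2 arrays highest, and no 2 states overlapped. Ptgs1 was 6.99 ± 0.21 lower in M1 than in M0 cells, a difference of -6.99 or 127-fold (limma adjusted p = 0.00681), the 5th largest decrease of all genes tested. The difference was -7.13 in KO and -6.85 in WT. The KO M1 signal counted as well above background but was near the lowest such signal on that array, 8.67 units.

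Hpgd, the enzyme of prostaglandin breakdown, had 3.67 units in KO M1 and 6.27 in WT M1, both not well above background. It had 38.5 units in KO M2 and 109 in WT M2, and 229 in KO M0 and 722 in WT M0. The order was M0 above M2 above M1, without overlap. The fitted difference between M1 and M0 cells was -6.46 (limma adjusted p = 0.00681), from M1 levels not well above background. Because the M1 arrays give only a bound, Hpgd was at least 51.5-fold lower in M1 than in M0 cells. It was at least 25.6-fold lower in KO and at least 103-fold in WT, and the bounds were not tested. For such a bound the dim state was put, array by array, at its lowest signal that counted as well above background, or at the probe's own where that was higher. The highest Hpgd value lay on WT M0, the array with the liver transcripts, whose part in it was not tested. In KO M0 the liver median was -5.64. With normexp background correction, which adds an offset of 50, and quantile normalization, the M1 against M0 difference of Hpgd was smaller, at -2.35, and still passed. The same setting gave -4.92 for Ptgs1, 6.56 for Ptgs2, 3.97 for Ptges and -1.45 for Ltc4s, all past the threshold.

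Ltc4s had 95.4 units in KO M1 and 36.0 in WT M1, 623 in KO M2 and 502 in WT M2, and 391 in KO M0 and 249 in WT M0. The M1 arrays were lowest and did not overlap those of either other state. The difference between M1 and M0 cells was -2.46 ± 0.37 (limma adjusted p = 0.0220), with -1.99 in KO and -2.93 in WT. These are bulk samples, in which fewer cells of a type and less RNA per cell cannot be told apart. Ltc4s is also a gene of mast cells, basophils and eosinophils, and Alox5 of these and of neutrophils. Of 11 mast cell and basophil markers, 4 to 7 were well above background on an array, and Cpa3, Tpsab1 and Ms4a2 were not well above background on any. Their log2 summed level was 0.87 in KO M1 and 0.18 in WT M1, -2.00 in KO M2 and -2.17 in WT M2, and -2.23 in KO M0 and -2.33 in WT M0. Hdc, histidine decarboxylase, carried that sum in M1, at 0.71 in KO M1 and 0.05 in WT M1. It was the only one of the 7 tested markers of the list that passed in M1 against M0, at 4.97 (limma adjusted p = 0.0134). Without passing, Gata2 was at -0.85, Kit at least 1.72-fold lower and Mcpt4, not well above background in either state, at -0.44. Fcer1a was at 0.71, Cma1 at 0.15 and Tpsb2 at 0.12, and the median of the 7 was 0.12. Of 5 eosinophil markers, 2 or 3 were well above background on an array, and Epx and Il5ra were not on any. Their log2 summed level was -1.06 in KO M1 and -1.09 in WT M1, 0.79 in KO M2 and 0.89 in WT M2, and 1.54 in KO M0 and 1.08 in WT M0. Ccr3 led that list and fell, at -2.51 for M1 against M0 (limma adjusted p = 0.0116), and Siglecf was at -1.38 (adjusted p = 0.0904). Of 9 neutrophil markers, 5 to 9 were well above background. Their log2 summed level was 2.12 in KO M1 and 1.96 in WT M1, 2.72 in KO M2 and 4.73 in WT M2, and 3.89 in KO M0 and 6.35 in WT M0, so the sums of eosinophil and neutrophil markers were lowest on the same arrays as Ltc4s and Alox5. The part of such cells was not tested.

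The other 4 genes did not pass for M1 against M0, and for Alox5 and Alox5ap this turned on the setting. Alox5 had 29.1 units in KO M1 and 18.3 in WT M1, 109 in KO M2 and 45.9 in WT M2, and 64.4 in KO M0 and 78.7 in WT M0. Its M1 arrays were below the other 4, at -1.67 ± 0.43 against M0 (limma adjusted p = 0.0626). It passed with the mean of all its probes, with only genes bright on all 6 arrays and with the intensity trend (lowest adjusted p = 0.0320). The 3 Alox5 probes had one direction and different sizes. In KO the M1 minus M0 differences were -1.10, -2.63 and -1.39, and in WT they were -2.25, -3.55 and -3.12, with the third probe not well above background in either M1 array and the second not in WT M1. Alox5ap was bright throughout, with 23591 units in KO M1 and 37872 in WT M1, 28918 in KO M2 and 32418 in WT M2, and 49259 in KO M0 and 45976 in WT M0. Both M0 arrays were above the other 4, with a difference of -0.72 ± 0.21 for M1 against M0 (limma adjusted p = 0.0827). It passed with normexp, with quantile normalization and with the intensity trend (lowest adjusted p = 0.0156).

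Ptger2 had 555 units in KO M1 and 1545 in WT M1, 2795 in KO M2 and 2591 in WT M2, and 1141 in KO M0 and 958 in WT M0. Its 2 M2 arrays were the highest, and its M1 arrays stood on either side of M0, with a mean difference of -0.23 ± 0.46 (limma adjusted p = 0.755). Ptger4 had 456 units in KO M1 and 468 in WT M1, 356 in KO M2 and 216 in WT M2, and 738 in KO M0 and 626 in WT M0. The states did not overlap in Ptger4, and M1 differed from M0 by -0.61 ± 0.21 (limma adjusted p = 0.116). A second Ptger4 probe was too dim to count on all 6 arrays.

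**Figure D2:**
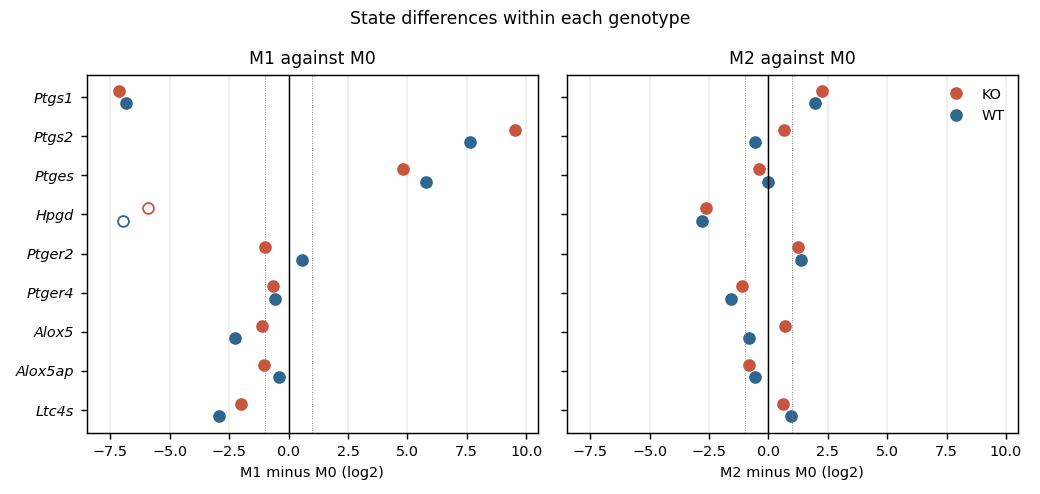
M1 minus M0 and M2 minus M0 (log2) for each gene, with KO in red above WT in blue, each point 1 array against 1 array. Open points rest on an array not well above background, and dotted lines mark a 2-fold difference. Ptgs2, Ptges, Ptgs1 and Hpgd lie far from 0 in M1, and Alox5 and Ptgs2 lie on both sides of 0 in M2.

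In M2 cells none of the 9 passed. For M2 against M0, 0 of 9 had an adjusted p under 0.05 in limma, beside 0.0840% of all genes tested, and at an unadjusted p under 0.05 there were 2 higher and 3 lower, beside 9.82% and 9.31% of all genes. Ptgs1 was 2.10 ± 0.21 higher (limma adjusted p = 0.0707), with 2.24 in KO and 1.95 in WT. Hpgd differed by -2.71 ± 0.33 (adjusted p = 0.0827), with -2.64 in KO and -2.78 in WT. Ptger4 differed by -1.35 ± 0.21 (adjusted p = 0.107) and Ptger2 by 1.31 ± 0.46 (adjusted p = 0.255). These 4 of the 9 genes were at least 2-fold apart in KO, beside 9.20% of all genes, and the same 4 in WT, beside 27.4%. Each had the same direction in both genotypes, for which no share of all genes was computed. Ltc4s differed by 0.79, Alox5ap by -0.69, Ptges by -0.20, Alox5 by -0.07 and Ptgs2 by 0.03. Other settings brought Ptgs1, Hpgd or Ptger4 past the threshold: median centring called Hpgd and Ptgs1, normexp with quantile normalization called Ptger4 and Ptgs1, and an intensity trend in the variance prior called Hpgd, Ptger4 and Ptgs1.

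Between the 2 stimulated states the same 5 genes passed as in M1 against M0. For M1 against M2, 5 of 9 had a limma adjusted p under 0.05, beside 25.4% of all genes. Ptgs1 was 543-fold lower in M1 than in M2 cells, at -9.09 ± 0.21 (adjusted p = 0.00441). Ptgs2 was 8.56 ± 0.52 higher (adjusted p = 0.00593) and Ptges 5.49 ± 0.29 higher (adjusted p = 0.00547). Ltc4s differed by -3.25 ± 0.37 (adjusted p = 0.0127). Hpgd was at least 7.88-fold lower, a bound that was not tested. Its fitted difference was -3.75 (adjusted p = 0.00854), a call that ended under normexp background correction with quantile normalization, at -0.61 (adjusted p = 0.267). The 2 cyclooxygenases thus stood on opposite sides of 0 in this comparison.

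With any 1 of the 4 M0 and M1 arrays left out, none of the 9 passed for M1 against M0, and neither did any of the 19043 genes. With 1 of the 6 arrays left out the differences kept their direction, between 7.80 and 9.37 for Ptgs2, 4.89 and 5.68 for Ptges, -7.20 and -6.78 for Ptgs1, -6.96 and -5.96 for Hpgd, and -3.02 and -1.90 for Ltc4s. Without WT M0, which carried the liver transcripts, limma called 0 genes at an adjusted p under 0.05 and 4271 at an unadjusted p under 0.05.

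The remaining comparison asked whether KO cells differ from WT cells in these genes. For KO against WT over all 3 states, limma called 0 of the 9, beside 0.00% of all genes tested (0 of 19043). At an unadjusted p under 0.05 there were 0 genes higher and 2 lower among the 9, Ptgs1 and Hpgd, beside 6.82% higher and 4.51% lower among all genes. Ptgs1 differed by -1.42 ± 0.17 (limma adjusted p = 0.339), and its KO minus WT difference in M0, M1 and M2 cells was -1.42, -1.70 and -1.14 in that order. The M1 value rests on a KO signal near background. Ptgs1 alone among the 9 was 2-fold or more below WT in each of the 3 states, beside 0.268% of all genes tested. With an intensity trend in the variance prior it passed, at an adjusted p = 0.0411, as 1 of 32 genes. Some marker lists were lower in KO too. The median KO against WT difference was -1.04 for 8 stromal and fibroblast genes and -0.99 for 9 neutrophil genes, beside 0.09 over all genes. It was -1.44 for 7 liver genes and -0.42 for 6 platelet and megakaryocyte genes. The other cell type lists had medians from -0.04 (macrophage) to 0.63 (mast cell and basophil). Lum among the stromal, Mmp8 among the neutrophil and Pf4 among the platelet genes went the other way, at 0.41, 0.34 and 0.30. Pf4 was the brightest of its list. By the median level of its 8 genes, the liver list was lower in KO in M0 alone, at -5.64 against 0.22 in WT. In M1 that level was -3.81 in KO and -5.98 in WT, and in M2 it was -5.35 in KO and -5.48 in WT. For M1 against M0 the median was -1.25 for the stromal, -1.85 for the neutrophil and -0.92 for the platelet genes, and Ptgs1 differed by -6.99. For M2 against M0 these medians were -1.01, -1.29 and -0.68, and Ptgs1 differed by 2.10. The part of such cells was not tested.

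Hpgd differed by -1.43 ± 0.27 in KO against WT (limma adjusted p = 0.359). Its KO minus WT difference was -1.83 in M0 and -1.69 in M2, and in M1 both arrays were not well above background. Only the M2 pair shares a slide, and WT M0 is the array with the liver transcripts, whose part in the M0 difference was not tested.

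**Figure D3:**
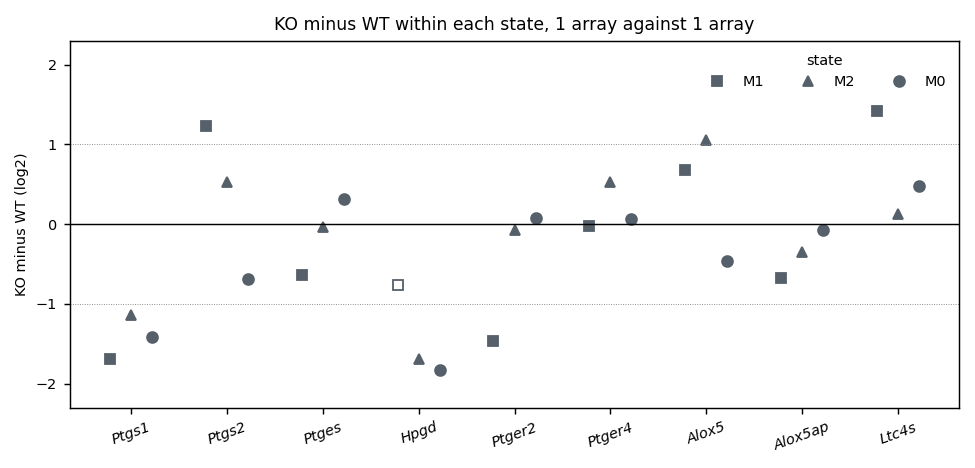
KO minus WT (log2) for each gene in M1 (squares), M2 (triangles) and M0 (circles), each point 1 array against 1 array without error bars. The open square is Hpgd in M1, where both arrays were not well above background, and dotted lines mark a 2-fold difference. Ptgs1 lies below -1 in all 3 states, and the signs of Ptgs2 and Alox5 vary between states.

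Within a state, 2 of 9 genes were at least 2-fold apart between KO and WT in M0, beside 14.2% of all genes, 4 of 9 in M1, beside 15.7%, and 3 of 9 in M2, beside 8.27%. Each value sets a single array against another, without a test. In M1 the 2 higher genes were Ltc4s, at 1.42, and Ptgs2, at 1.24, where 14.0% of all genes were at least 2-fold higher in KO. The 2 lower were Ptgs1 and Ptger2, where 1.71% of all genes were at least 2-fold lower. The KO minus WT difference of Ptger2 was -1.46 in M1, against 0.08 in M0 and -0.08 in M2. In M2, Alox5 was at 1.06, beside Ptgs1 and Hpgd, which were lower. The Ptgs2 difference in M0 was -0.69, and its second probe gave -0.73 in M0 cells, 1.60 in M1 cells and 0.63 in M2 cells. The M0 and M1 pairs differ in slide as well as in genotype, and these cannot be told apart. Ptges, Ptger4 and Alox5ap stayed less than 2-fold apart in every state.

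The responses to M1 and M2 conditions were also set side by side between the genotypes. The M1 minus M0 responses in KO and WT were at least 2-fold apart in 4 of 9 genes, beside 11.1% of all genes. The KO response minus the WT response was 1.92 for Ptgs2, -1.54 for Ptger2 and 1.15 for Alox5. The fourth, Hpgd at 1.07, rests on arrays not well above background. The M2 minus M0 responses were at least 2-fold apart in 2 of 9, beside 18.9% of all genes. Alox5 was 0.70 higher in KO M2 than in KO M0, whereas WT M2 minus WT M0 was -0.83. For Ptgs2 the same differences were 0.64 in KO and -0.58 in WT. WT M2 and WT M0 lie on different slides, and the KO arrays on one, so in the M2 responses genotype and slide cannot be told apart. With slide as a block Alox5 was at 0.41 for M2 against M0, the same as without WT M2. WT M2 is the only WT array on slide 2, so that fit gives it no weight in the state differences. None of these values has a replicate check.

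Around the 9 genes, 51 other genes of the pathway were listed, also with earlier results known, and 41 of them were bright enough to be tested. For M1 against M0, 6 rose and 6 fell in limma at an adjusted p under 0.05, which is 29.3% of the 41 beside 25.6% of all genes. The median difference of the list was -0.18, beside 0.03 over all genes tested. That share is near the background.

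By direction, 11.6% of all genes rose and 14.0% fell in M1 against M0. Among the phospholipases, 3 of 11 rose and 1 fell. Pla2g4a, the cytosolic phospholipase that frees arachidonic acid, rose by 4.08 ± 0.17 (limma adjusted p = 0.00681). The secreted Pla2g5 rose by 2.45 and Pla2g7, which degrades platelet-activating factor, by 1.74, while the lysosomal Pla2g15 was at -1.61. None of the 7 other prostanoid synthases tested passed. Of the 4 breakdown and transport genes, Ptgr1, a prostaglandin reductase, rose by 1.16. None of the 3 other prostanoid receptors tested passed, and 4 of the 7 listed were too dim to test.

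Of 8 leukotriene enzymes and transporters tested, 5 fell and 1 rose in M1 cells, beside the 14.0% and 11.6% of all genes. Those that fell were Ggt5, which converts leukotriene C4 to D4, at -2.62, Mgst3 at -2.32, Cyp4f18, which oxidises leukotriene B4 in mouse, at -1.77, Dpep2, which converts D4 to E4, at -1.55, and Lta4h, which makes leukotriene B4, at -0.80. Mgst2, a microsomal glutathione transferase that can make leukotriene C4, rose by 2.52 ± 0.24 (limma adjusted p = 0.0108). The receptor Cysltr2 rose by 4.76 ± 0.28 (limma adjusted p = 0.00709), and it was the only one of 4 leukotriene receptors tested that passed. None of the 4 other lipoxygenases tested passed.

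**Figure D4:**
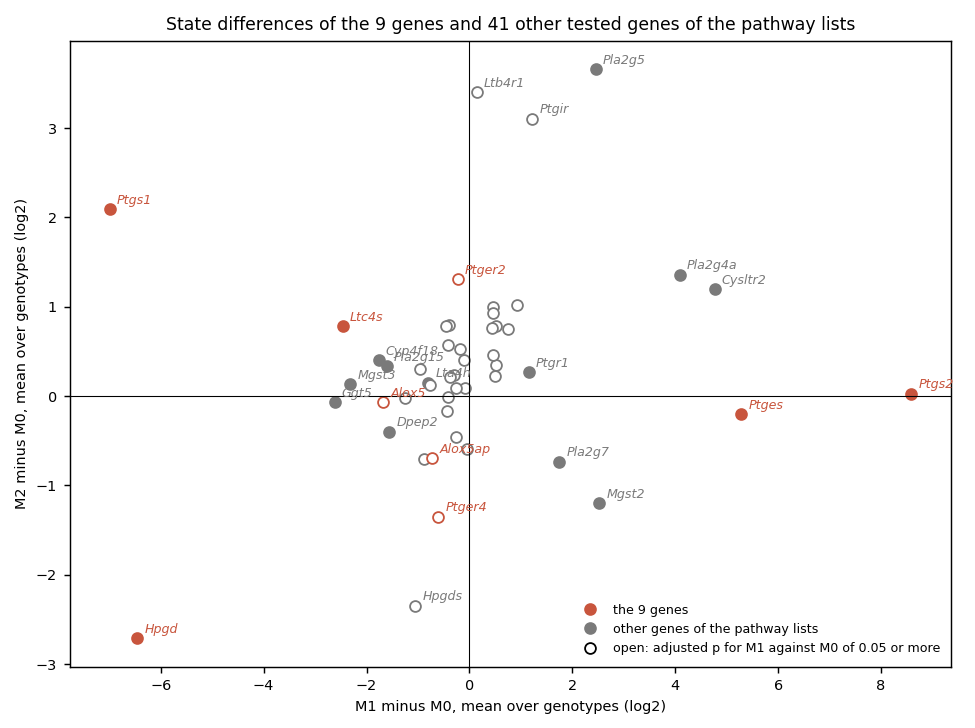
M2 minus M0 against M1 minus M0 (log2, mean over genotypes) for the 9 genes in red and 41 other tested genes of the pathway lists in grey. Filled points have an adjusted p under 0.05 for M1 against M0. Ptgs2 lies farthest right and Ptgs1 farthest left, and Ltb4r1, Pla2g5 and Ptgir lie highest on the M2 axis.

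For M2 against M0 none of the 41 listed genes passed, with Pla2g5 at 3.66 (adjusted p = 0.0505), Ltb4r1 at 3.40 (adjusted p = 0.0586) and Ptgir at 3.10 (adjusted p = 0.0748). For M1 against M2, 4 rose and 12 fell, 39.0% of the 41 beside 25.4% of all genes. Mgst2 at 3.72, Cysltr2 at 3.57, Pla2g4a at 2.73 and Pla2g7 at 2.47 were the 4 that rose. Ltb4r1, the high-affinity leukotriene B4 receptor, fell most, at -3.26. It was followed by Ggt5 at -2.56, Mgst3 at -2.45, Cyp4f18 at -2.17, Pla2g15 at -1.95 and Ptgir, the prostacyclin receptor, at -1.88. Pla2g12a, Pla2g5, Pla2g2e, Dpep2, Tbxas1 (thromboxane synthase) and Lta4h fell too, with differences between -1.24 and -0.95.

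For KO against WT none of the 41 passed. Ltb4r1 was 2-fold or more lower in KO than in WT in each state, at -1.22 in M0, -1.99 in M1 and -1.54 in M2 (limma adjusted p = 0.345). Aloxe3, an epidermal-type lipoxygenase, was 2.46 higher in M0, and because WT M1 and WT M2 were not well above background it was at least 2.92-fold higher in M1 and at least 11.1-fold higher in M2.

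The genes whose 6 levels ran most like those of a member were found by the root mean square difference of profiles centred on their own mean, over 6 arrays and genes well above background on all of them. Acod1 was nearest to Ptgs2, at 0.44 log2 units, followed by Ccl12 at 0.54 and Gbp6 at 0.78. Gpr31b, Traf1 and Saa1 were nearest to Ptges, at 0.32 to 0.36. For Ptgs1 the nearest were Matk at 0.88, Sort1 at 1.04 and Mrc1 at 1.29. Ptgs1 also had the widest range of levels among the members. The distances were not scaled to a member's range, so their sizes cannot be compared between members. Whether a gene left out of the search ran closer to Ptgs1 was not tested. Zfyve28 was listed nearest to Hpgd at 0.51, but the 2 M1 levels of Hpgd are not well above background, so that order is uncertain. Mmp19 was nearest to Ptger2 at 0.21, Anxa3 to Ltc4s at 0.25 and Rab15, among genes with a symbol, to Alox5 at 0.23. Ptger4 and Alox5ap spanned less than 2 log2 units and were not searched.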

How the data were processed

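RNA of 6 macrophage cultures, 1 for each genotype and state, was measured on 1-colour Agilent arrays. The authors deposited spot intensity values which per the file headers were made with Feature Extraction 10.7.3.1 of Agilent and are background-subtracted within the array, not scaled between arrays. They also deposited a table of log2 values, with unstated centring. Its columns had medians of 5.39 to 5.41, matched their own array best (Pearson r across probes 0.99886 to 0.99987), and served as an alternative.

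Control spots and outlier-flagged spots were left out and spots of a probe averaged. The level was log2 processed signal minus log2 of the array's 75th percentile. The brightest probe stood for a gene, and 19043 of 27361 names, on which that probe was well above background in 2 or more of the 6, were tested. An additive model, with state and genotype as terms, used all 6 arrays in limma 3.58.1 in R 4.3.3 (2 residual df, prior df 1.88), with Benjamini-Hochberg adjustment over all tested genes and a threshold of 0.05. Its residual mixes array noise with genotype effects that vary between states, and the number of arrays limits the precision. The fit was tested on simulated data. Named were the 9 genes, pathway genes past the threshold or at least 2-fold apart in all 3 states, 3 check genes and the nearest profiles, of which only Rab15 is named for Alox5, since the other 2 carry no symbol. Pla2g2e, Pla2g12a and others are named by the same rule, and Ptgir, Ltb4r1 and Pla2g5 in M2 for their size, after their values were seen. Members and lists were chosen with earlier results of these data known. Probe coordinates are on mm9, per the file headers, and promoters are RefSeq's on GRCm38.p6. Alternatives changed the scaling, background correction, filter, probe choice, slide, variance prior and arrays.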

Additional observations from a re-analysis of the deposited data

Results flagged for a closer look

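Differences of opposite sign between genotypes or states, both at least 0.5 on the log2 scale (a size set after the values were seen) and both measured well above background, are given here. None was tested, since each rests on single arrays. Ptger2 differed between M1 and M0 by -0.997 in KO and 0.55 in WT. Alox5 differed between M2 and M0 by 0.70 in KO and -0.83 in WT. Ptgs2 differed between M2 and M0 by 0.64 in KO and -0.58 in WT. In these M2 responses slide and genotype cannot be told apart, since WT M2 and WT M0 lie on different slides. KO minus WT for Ptgs2 gave -0.69 in M0 cells, 1.24 in M1 cells and 0.53 in M2 cells.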

How the results depend on the processing

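No paired analysis was possible because the labels give no replicate numbers and each group has 1 array. The count of the 9 genes past an adjusted p of 0.05 for M1 against M0 was 5 and ranged from 0 to 5 with 1 array left out, and it was 0 without WT M0, WT M1, KO M0 or KO M1. For M1 against M2 it was likewise 0 to 5, with 0 without WT M1 or KO M1, and it was 8 with an intensity trend in the variance prior. For M2 against M0 it was 0, and became 2 with normexp and with median centring, 1 with quantile normalization, with the authors' deposited table and with genes bright on all 6 arrays, and 3 with the trend. For KO against WT it became 1 with the trend. The number of all genes called for M2 against M0 was 16 and ran from 0 to 1083 (863 with normexp, 478 with median centring, 275 with genes bright on all 6 arrays, 153 with the authors' deposited table, 138 with quantile normalization, 0 with no filter or with slide as a block). For M1 against M2 it was 4832, and 2210 with slide as a block. It was 0 without WT M1 or KO M1, 1252 without WT M0 or KO M0, and 2210 without WT M2. For M1 against M0 the number was 4872, and 0 when WT M0, WT M1, KO M0 or KO M1 was left out. For KO against WT it was 0, and 32 with the trend. Median centring moved the median M1 against M0 difference of all genes from 0.03 to 0.26.

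With normexp the genes at least 2-fold apart between KO and WT were 2 in M1 and 1 in M2, and 0 differed in their M2 response. With quantile normalization or the authors' deposited values, 2 differed in their M1 response. Signs turned only in differences that no test called. Ptger2 in M1 against M0 was 0.0054 with median centring, and between -0.96 and 0.51 with 1 array left out (0.20 without KO M0, 0.51 without KO M1). Ptgs2 in M2 against M0 was -0.0177 with normexp, -0.0819 with quantile normalization, -0.0787 with the authors' deposited table, -0.0682 with median centring, and between -0.76 (without KO M0) and 0.82 with 1 array left out (-0.10 without KO M2). Ptges ranged there from -0.53 to 0.13 (without KO M0). Alox5 was 0.41 with slide as a block or without WT M2, and ranged from -0.73 to 0.60 (without WT M0). Alox5ap in M1 against M2 was 0.30 with median centring and ranged from -0.26 to 0.20 (without KO M1). In KO against WT without either M1 array, Ptgs2 was -0.0771, Ptges 0.14 and Ptger2 0.00100, and with 1 array left out they ranged up to 0.88 for Ptgs2, and down to -0.34 for Ptges and -0.77 for Ptger2. The cause of each was not tested. Where an array is left out, fewer samples remain and the lone one is assumed to vary like the others. Signals near background limit Hpgd and Ptgs1 in M1, Alox5 and the low Ptgs2 arrays. With slide as a block KO against WT is the M2 pair alone, and the state differences are those of the fit without WT M2.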
